A study of Mus musculus with 8 samples.

Results

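Broad H3K4me3 domains were followed in haematopoietic stem cells (HSCs) of mice with and without the retinoid X receptors RXRα and RXRβ. The histone mark H3K4me3 was profiled by CUT&RUN: a nuclease, brought to marked nucleosomes of permeabilised cells by an antibody, cuts out the DNA there, and the fragments are sequenced. In each genotype's list of H3K4me3 peaks, peaks separated by at most 500 bp were joined, overlapping joined domains of both lists were merged, and a merged domain was kept when its longest joined piece was at least 4 kb in at least 1 list. This left 153 of 56918 merged domains (0.269%). The lengths of H3K4me3 therefore chose the domains, and every H3K4me3 length or covered length below is a description of these domains and no test of a genotype effect. The 2 groups were RXRKO, labelled VavCre+ with Rxra Δ/Δ and Rxrb Δ/Δ, and WT, whose sample labels also read VavCre+ while the study's design text gives floxed Rxra and Rxrb alleles and no Cre. A difference in Cre between the groups therefore cannot be told apart from the loss of the receptors. Vav-Cre is active throughout blood cells, so the receptors were missing in the other blood lineages of the RXRKO mice as well. Both groups were C57BL/6 mice of about 10 months, the bone marrow of 4 or 5 mice was pooled, and 7500 HSCs sorted as Lin-, cKit+, Sca1+, CD48- and CD150+ went into each assay. There was 1 H3K4me3 and 1 H3K27ac library per genotype and 2 H3K4me1 libraries per genotype, so only H3K4me1 allowed a test. The labels do not say whether the 2 H3K4me1 replicates came from separate pools of mice, and their p-values measure the spread between libraries, which may be technical.

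H3K4me3 is laid down at active promoters by the SET1 and KMT2 (MLL) methyltransferase complexes, which are drawn to unmethylated CpG-rich DNA and to elongating RNA polymerase II. At most active genes the mark forms a narrow block on the nucleosomes either side of the start. A small set of genes carries a block several times wider that runs into the gene body, and in many cell types this set is known to hold regulators of cell identity and tumour suppressors. H3K27ac marks active promoters and enhancers, and H3K4me1 marks enhancers and the shoulders of promoters. RXRα and RXRβ are nuclear receptors that pair with other nuclear receptors, such as those for retinoic acid, fatty acids and oxysterols, and bind repeats of the half-site AGGTCA.

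Promoters of 6 domains to which the results return are printed below, each 300 bases long, running from 250 bases before the start to 50 after it (RefSeq, build GRCm38.p6, the gene's own strand). Capitals mark CpG dinucleotides. Txnip, Erf and Nr4a3 stand for the longest domains, Hlf and Mbnl1 for domains that differed in H3K27ac, and Runx1 for a broad domain on a promoter poor in CpG.
Txnip (chr3:96557707-96558006, plus strand): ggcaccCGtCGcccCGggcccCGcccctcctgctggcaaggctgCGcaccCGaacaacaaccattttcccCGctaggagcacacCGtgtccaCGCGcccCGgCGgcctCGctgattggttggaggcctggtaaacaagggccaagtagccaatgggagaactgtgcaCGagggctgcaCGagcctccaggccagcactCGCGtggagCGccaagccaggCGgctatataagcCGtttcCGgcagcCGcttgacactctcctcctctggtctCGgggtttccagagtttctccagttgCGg
Erf (chr7:25250709-25251008, minus strand): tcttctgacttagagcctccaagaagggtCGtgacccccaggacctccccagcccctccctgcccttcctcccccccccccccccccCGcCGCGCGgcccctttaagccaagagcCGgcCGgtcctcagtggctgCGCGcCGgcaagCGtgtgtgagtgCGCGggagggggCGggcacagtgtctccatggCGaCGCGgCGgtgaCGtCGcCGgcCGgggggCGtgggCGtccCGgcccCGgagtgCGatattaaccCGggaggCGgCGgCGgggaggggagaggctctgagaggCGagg
Nr4a3 (chr4:48045055-48045354, plus strand): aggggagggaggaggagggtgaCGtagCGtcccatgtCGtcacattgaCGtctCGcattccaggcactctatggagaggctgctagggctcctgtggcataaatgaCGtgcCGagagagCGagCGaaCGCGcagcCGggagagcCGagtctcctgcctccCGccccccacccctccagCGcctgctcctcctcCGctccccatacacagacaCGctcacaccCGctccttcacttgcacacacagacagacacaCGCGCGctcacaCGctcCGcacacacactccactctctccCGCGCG
Hlf (chr11:90390868-90391167, minus strand): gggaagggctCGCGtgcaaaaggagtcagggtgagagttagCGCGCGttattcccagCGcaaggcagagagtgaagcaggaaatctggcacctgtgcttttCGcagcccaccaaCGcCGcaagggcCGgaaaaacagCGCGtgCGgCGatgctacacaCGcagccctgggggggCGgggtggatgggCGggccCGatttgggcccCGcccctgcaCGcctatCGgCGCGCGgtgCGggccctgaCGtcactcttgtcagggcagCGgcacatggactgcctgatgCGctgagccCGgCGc
Mbnl1 (chr3:60500929-60501228, plus strand): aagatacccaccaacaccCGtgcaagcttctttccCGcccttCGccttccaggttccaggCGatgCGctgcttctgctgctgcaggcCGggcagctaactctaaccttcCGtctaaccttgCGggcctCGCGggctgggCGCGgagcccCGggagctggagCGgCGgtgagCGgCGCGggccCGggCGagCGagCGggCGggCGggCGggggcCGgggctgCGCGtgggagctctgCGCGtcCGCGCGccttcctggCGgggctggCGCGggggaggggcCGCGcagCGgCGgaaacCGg
Runx1 (chr16:92826025-92826324, minus strand): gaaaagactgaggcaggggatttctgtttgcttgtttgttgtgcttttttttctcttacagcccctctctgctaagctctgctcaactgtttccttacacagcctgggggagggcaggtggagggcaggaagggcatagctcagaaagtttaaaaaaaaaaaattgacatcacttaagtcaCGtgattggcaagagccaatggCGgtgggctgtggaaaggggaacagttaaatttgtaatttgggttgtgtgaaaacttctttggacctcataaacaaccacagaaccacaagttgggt
The first 5 windows hold 24 to 41 CpG dinucleotides. The Runx1 window, at the distal of the gene's known promoters, holds 2.

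The files are lists of peaks without read counts, so the number of reads in each library is not known. No error can be set on a length from 1 library. The RXRKO H3K4me3 list was the larger one, with 58136 peaks over 53.8 Mb in RXRKO HSCs and 47835 peaks over 45.5 Mb in WT HSCs. The peak caller's genome-wide background was recovered from the deposited fold and p of each peak. It was 6.68 fragments per base in RXRKO and 4.12 in WT, a ratio of 1.62 in fragment coverage. Lengths of called peaks can move with this background, and its part in the differences below was not tested. In at least 1 list, all 35 listed HSC surface and signalling genes had an H3K4me3 domain at their start. The same held for 7 of 20 granulocyte and monocyte markers, 8 of 20 lymphocyte markers and 12 of 20 erythroid and megakaryocyte markers. It also held for 12 of 16 stromal and endothelial markers, against 68.1% of all coding genes. The HSC surface list is wider than the sort markers. It includes Cd48, for which the cells were sorted negative, with 530 bp in RXRKO and 0 bp in WT.

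Every one of the 153 broad domains was called in both genotypes, so none was found in 1 list only. This was not particular to them. All 707 domains of 3 to 4 kb and 4008 of 4015 domains of 2 to 3 kb were called in both lists, against 42483 of all 56918 merged domains. By the 4 kb limit, 134 were broad in RXRKO HSCs and 103 in WT HSCs; 84 were broad in both, 50 in RXRKO alone and 19 in WT alone. The shared domains were 62.7% of those broad in RXRKO and 81.6% of those broad in WT. The longest piece had a median of 4287 bp in RXRKO and 4119 bp in WT, a median log2 ratio of 0.02. It was longer in RXRKO at 98 domains, longer in WT at 54 and equal at 1, so 64.1% were longer in RXRKO. Of all 42483 merged domains called in both lists, 68.3% were longer in RXRKO, with a median log2 ratio of 0.07.

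The bases covered by peaks were more often higher in RXRKO than the length was, but large differences in them were rarer. Covered length was higher in RXRKO at 105 domains and lower at 48, with a median log2 ratio of 0.06 (0.07 over all merged domains called in both lists). Over the 153 domains H3K4me3 covered 611.3 kb in RXRKO and 576.7 kb in WT, and the covered length of 106 domains was within 10% between the genotypes. A length at least 1.5-fold greater in RXRKO was found at 26 broad domains, and one at least 1.5-fold smaller at 6, against 13.9% and 2.32% of all merged domains called in both lists. In covered bases only Tns2 and Sp9 were at least 1.5-fold higher in RXRKO (13.4% of all merged domains) and none was at least 1.5-fold lower (2.0% of all). Among the 707 domains of 3 to 4 kb just below the limit, 6.08% were 1.5-fold longer in RXRKO and 1.56% 1.5-fold shorter. All of these counts come from the contrast that chose the domains, and nothing is read from them.

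Most of the large length differences lay in whether a gap inside the domain was bridged. At 111 domains each genotype had a single joined piece, and there the median log2 length ratio was 0.01, with 3 domains past 1.5-fold. At 33 domains the WT signal was broken into pieces by a gap of 502 to 2034 bp (median 779 bp), whereas the largest gap in RXRKO was at most 498 bp. The outer span of these 33, from the first to the last marked base, had a median log2 ratio of 0.00, against 0.82 for the longest piece. Their covered length was higher in RXRKO at all 33, with a median log2 ratio of 0.21, against 0.03 at the 111 domains in a single piece. Sorting by a gap over 500 bp in WT alone favours this outcome, so nothing is read from it. The reverse held at 9 domains, which were broken in RXRKO by a gap of 505 to 775 bp and joined in WT, with a median log2 ratio of 0.01 for the span, -0.06 for covered length and -0.70 for the longest piece. Of the 50 domains broad in RXRKO alone, 31 were broken in WT, and of the 19 broad in WT alone, 9 were broken in RXRKO. Measured by outer span, 120 of the 153 domains reached 4 kb in both genotypes, 23 in RXRKO alone and 10 in WT alone; this measure was chosen after the data had been seen.

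**Figure D1:**
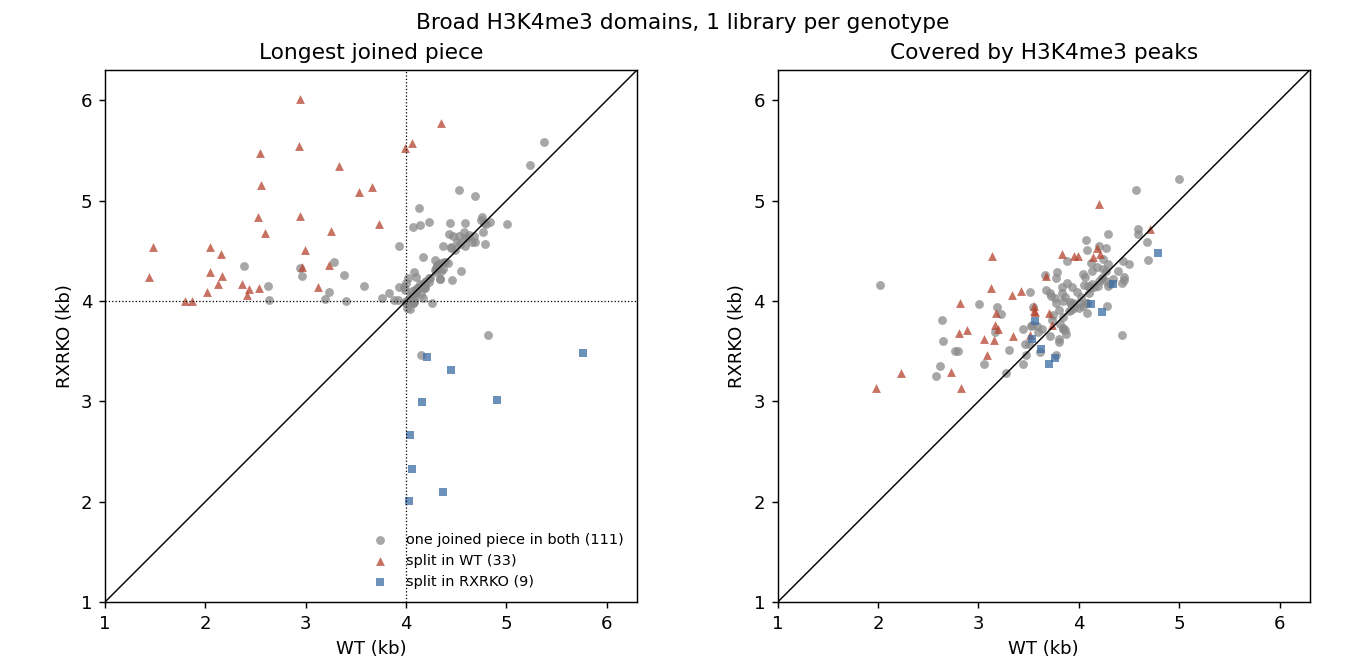
Length of the longest joined H3K4me3 piece (left) and bases covered by H3K4me3 peaks (right) in RXRKO (vertical axis, kb) and WT (horizontal axis, kb) for the 153 broad domains, 1 library per genotype. The 33 domains split in WT and the 9 split in RXRKO lie far from the diagonal on the left. On the right the 33 all lie above it, by a median log2 ratio of 0.21, which sorting by a gap in WT favours. Dotted lines mark 4 kb.

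The longest domain lay at Txnip (chr3:96556251-96562263), which encodes a thioredoxin-binding protein that restrains glucose uptake and is known to keep mouse HSCs quiescent. Its longest piece was 6013 bp in RXRKO and 2941 bp in WT, and its covered length was 4448 bp in RXRKO and 3138 bp in WT. The outer span was 6013 bp in RXRKO and 4738 bp in WT, so this domain was wider in RXRKO by every measure. Nr4a3 (chr4:48042797-48048457), an orphan nuclear receptor, shows how far the joining rule reaches. Its longest piece was 5574 bp in RXRKO and 4064 bp in WT, yet the covered length was 4712 bp in RXRKO and 4711 bp in WT. The largest gap there was 472 bp in RXRKO and 502 bp in WT, on either side of the 500 bp at which peaks were joined. Erf (chr7:25246509-25251866), a repressor of the ETS family, was long in both genotypes, with 5358 bp in RXRKO and 5237 bp in WT in a nearly unbroken block. Pcdh7, a protocadherin, had 5583 bp in RXRKO and 5377 bp in WT. Tgif1, a homeobox corepressor of TGF-β signalling, was the longest domain broad in WT alone, with 3484 bp in RXRKO and 5759 bp in WT, and its span was 5226 bp in RXRKO and 5759 bp in WT. The other domains among the 10 longest lay at Ppp1r9b (a regulatory subunit of protein phosphatase 1), Pim1 (a growth-promoting kinase), Bahcc1, Ptger4 (the prostaglandin E2 receptor EP4) and one annotated end of the non-coding RNA Neat1, which builds paraspeckles. The longest pieces of these 5 ran from 5342 to 5776 bp in RXRKO and from 2547 to 4352 bp in WT, and each was broken in WT.

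Among the 8 greatest length ratios in favour of RXRKO were those at Ctdsp2, Sp9, Frrs1, Bahcc1, Bhlhe41, Arid5b and Fli1. At Ctdsp2, which encodes a phosphatase of the RNA polymerase II tail, the longest piece was 4536 bp in RXRKO and 1483 bp in WT, while the span was 4536 bp in RXRKO and 4562 bp in WT. At Sp9, a zinc finger transcription factor, the longest piece was 4238 bp in RXRKO and 1439 bp in WT, and the span was also wider, 4238 bp in RXRKO and 3045 bp in WT. Sp9 carried the lowest summit of all broad domains in both genotypes, a pileup of 120 fragments in RXRKO and 72 in WT. Fli1, an ETS factor needed for blood and endothelial development, had 4472 bp in RXRKO and 2157 bp in WT over spans of 4472 bp in RXRKO and 4415 bp in WT. All 8 were broken in WT. Ratios in favour of WT were greatest at Gse1, Inka1, Elf1, Tgif1, Mllt6, Arpc2, Lrrfip1 and the shared start of Tmc6 and Tmc8, all of them broken in RXRKO. Gse1 had 2098 bp in RXRKO and 4365 bp in WT over spans of 4401 bp in RXRKO and 4365 bp in WT. Elf1, another ETS factor, had a shorter longest piece in RXRKO, 2325 bp against 4057 bp in WT, but a greater covered length, 3796 bp in RXRKO and 3566 bp in WT.

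The limit of 4 kb cut through a continuous range of lengths. Just inside it lay Plxnc1 with 4000 bp in RXRKO and 3401 bp in WT and Cpt1a with 3979 bp in RXRKO and 4003 bp in WT. Just outside lay Rsbn1l with 3999 bp in RXRKO and 3958 bp in WT, Sik1 with 3994 bp in RXRKO and 3995 bp in WT, and Klf13 with 3990 bp in RXRKO and 3961 bp in WT.

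Most broad domains lay at the starts of genes. A protein-coding gene start was within 1 kb of 140 of the 153 (91.5%), and 12 of these held the starts of 2 or more genes. The next narrower classes were close, with 88.1% of domains of 3 to 4 kb and 81.7% of those of 2 to 3 kb. In domains of 1 to 2 kb the share was 47.7%. In all, 151 of 21631 coding genes were marked (0.698%). Mllt3, a subunit of the super elongation complex known to maintain HSCs in culture, held 2 broad domains. Of the 13 domains without a coding start, 10 lay inside coding genes, among them Lmo2, a bridging factor of the HSC transcription complex, Nfe2, Bcor and Tcf4. The other 3 lay at Neat1, at the start of the non-coding RNA Gm6634 and at a site on chromosome 15 without an annotated gene. The marked genes were long, with a median of 31.7 kb against 23.8 kb for genes with any H3K4me3 domain at the start and 17.3 kb for all coding genes.

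Several transcription factors that define HSCs carried wide domains. Of 49 listed HSC transcription factors, 6 had a broad domain, namely Runx1, Lyl1, Fli1, Hlf, Ikzf2 and Elf1, and 15 more had one of 3 to 4 kb. Together 42.9% of this list had H3K4me3 of 3 kb or more, against 3.94% of all coding genes, of which 6892 had no domain at the start. Such widths were not particular to this list. The share was 36.4% of the interferon and inflammatory genes, 35.7% of the quiescence genes and cell cycle brakes and 28.6% of the MYC and MAX network. It was lower in the other lists, the highest of them being the chromatin and clonal haematopoiesis genes with 25%. The HSC surface and signalling genes followed with 22.9%. Further down were the cell cycle genes with 10.7% and the ribosomal protein genes with 3.33%. Hlf (chr11:90385943-90391106), a PAR bZIP factor known to mark and preserve HSCs, had a longest piece of 5140 bp in RXRKO and 3660 bp in WT, with spans of 5140 bp in RXRKO and 5164 bp in WT. Ikzf2, which encodes the zinc finger factor Helios, had 5156 bp in RXRKO and 2558 bp in WT over spans of 5156 bp in RXRKO and 5147 bp in WT. Runx1 (chr16:92822160-92826398), required for the emergence of HSCs, had 4144 bp in RXRKO and 3118 bp in WT, and Lyl1 had 4436 bp in RXRKO and 4170 bp in WT. Of the 6 factors, 4 were broad in RXRKO alone, 1 in WT alone (Elf1) and 1 in both (Lyl1), and their covered lengths had a median log2 ratio of 0.22, against 50, 19 and 84 of all 153 domains and a median of 0.06. These values come from the lists that chose the domains. Mecom, a listed factor just below the limit, had 3858 bp in RXRKO and 3870 bp in WT. Gata2 had 2850 bp in RXRKO and 3653 bp in WT.

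Other lists held 4 or fewer marked genes each. Of 35 HSC surface and signalling genes 3 were marked, the stem cell factor receptor Kit with 3984 bp in RXRKO and 4068 bp in WT, the phagocytosis inhibitor Cd47 with 4374 bp in RXRKO and 4422 bp in WT, and the adhesion molecule Esam with 4227 bp in RXRKO and 4235 bp in WT. Their lengths barely differed between genotypes. Of 28 genes of quiescence and cell cycle brakes 4 were marked (14.3%, against 12.2% of the HSC transcription factors), among them Txnip, Foxo3 and Tob2. Foxo3, a forkhead factor that protects HSCs from oxidative stress, ran the other way from Txnip, with 3661 bp in RXRKO and 4813 bp in WT, and its covered length was 3661 bp in RXRKO and 4429 bp in WT. Tob2, an antiproliferative protein, had 4098 bp in RXRKO and 4062 bp in WT. From the 14 genes of the MYC and MAX network, Myc had 4127 bp in RXRKO and 4114 bp in WT and its antagonist Mxi1 4150 bp in RXRKO and 4190 bp in WT, each unbroken in both genotypes. Of 36 chromatin and clonal haematopoiesis genes, the methyltransferase gene Kmt2a and the cohesin gene Stag2 were marked. Of 33 interferon and inflammatory genes, the immediate early genes Junb and Ier2 were marked, and of 39 Hox genes Hoxb7 alone, with 4251 bp in RXRKO and 2968 bp in WT.

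Further broad domains outside the lists are given as examples, picked after their values had been seen, with no count or test behind the choice. A domain broad in both genotypes is at least 4 kb in each by definition, which limits how far its lengths can differ. Over the 84 such domains the log2 length ratio ran from -0.08 to 0.46. Spry2, a feedback inhibitor of receptor tyrosine kinases, had 4659 bp in RXRKO and 4632 bp in WT, Spred1, an inhibitor of RAS signalling, 4362 bp in RXRKO and 4307 bp in WT, and the ERK phosphatase Dusp6 4543 bp in RXRKO and 4590 bp in WT. The insulin-like growth factor receptor gene Igf1r had 4736 bp in RXRKO and 4068 bp in WT, and Pik3r1, a regulatory subunit of PI3 kinase, 4931 bp in RXRKO and 4131 bp in WT, so both were longer in RXRKO. Smad3, a mediator of TGF-β signalling, had 4775 bp in RXRKO and 4591 bp in WT, the activin antagonist Fst 4508 bp in RXRKO and 4492 bp in WT, and the BMP ligand gene Bmp4 4763 bp in RXRKO and 3726 bp in WT. The PRC2 cofactor Jarid2 had 4765 bp in RXRKO and 4793 bp in WT, the MLL-family gene Kmt2e 5106 bp in RXRKO and 4531 bp in WT, the remodeller Chd2 4652 bp in RXRKO and 4524 bp in WT, and the SWI/SNF ATPase Smarca2 4075 bp in RXRKO and 4100 bp in WT. Msi2, an RNA-binding protein that sustains HSC self-renewal in mice, had 4566 bp in RXRKO and 4534 bp in WT. The pro-apoptotic gene Bbc3, which encodes PUMA, had 4787 bp in RXRKO and 4839 bp in WT, and the cytokine signalling adaptor Sh2b3, known to limit HSC expansion in mice, had 4135 bp in RXRKO and 4150 bp in WT.

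Of the genes of retinoid X receptor signalling, 1 of 38 nuclear receptors (2.63%), Nr4a3, and 1 of 30 target genes of receptors that pair with RXR (3.33%), the mitochondrial carnitine palmitoyltransferase Cpt1a, had a broad domain, against 0.698% of all coding genes. At the deleted genes themselves H3K4me3 was present, with a longest piece at Rxra of 2203 bp in RXRKO and 2180 bp in WT, and at Rxrb of 2526 bp in RXRKO and 2035 bp in WT. A peak at the start does not check the deletion, since the labels do not place the deleted exons. At that share of all genes lists of this size hold less than 1 marked gene, and no broad domain marked any of the 28 cell cycle genes, 30 MYC targets of ribosome assembly and growth, 30 ribosomal protein genes or 20 housekeeping genes. Likewise, none marked any of the listed granulocyte and monocyte, lymphocyte, erythroid and megakaryocyte or stromal and endothelial markers, although the Nfe2 domain lay inside that erythroid and megakaryocyte gene.

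**Figure D2:**
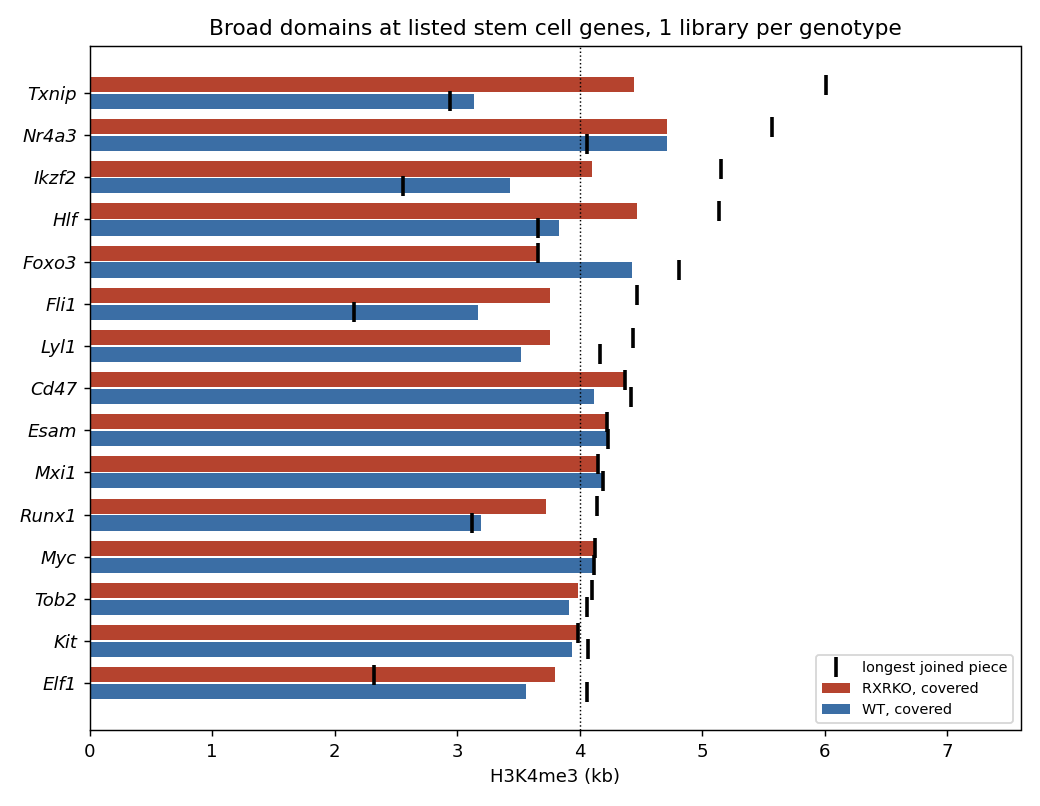
H3K4me3 at 15 broad domains that mark listed HSC transcription factors, HSC surface genes, cell cycle brakes, the MYC network and nuclear receptors, in kb, with RXRKO above WT and 1 library per genotype. Bars give covered length and black ticks the longest joined piece; at Nr4a3 the bars are equal (4712 and 4711 bp) although the ticks differ (5574 and 4064 bp), and Foxo3 is longer in WT.

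The broad domains were high in fragments and low in fold. The fold that the deposited lists give at a summit is measured against a local background, and its highest value in a broad domain had a median of 3.33 in RXRKO and 3.32 in WT. In domains of 1 to 2 kb this median was 8.94 in RXRKO and 8.93 in WT. The pileup recovered at the summit went the other way, with a median of 488 fragments in RXRKO and 294 in WT for broad domains, against 189 in RXRKO and 148 in WT for domains of 1 to 2 kb. The local background under broad domains was 21.6 times the genome-wide value in RXRKO and 22.2 times in WT, and under domains of 1 to 2 kb 2.87 times in RXRKO and 3.53 times in WT. A limit on fold therefore removes these domains: only 22 in RXRKO and 26 in WT held any peak with a fold of at least 4. Divided by each library's genome-wide background, a scale chosen after the data had been seen, the highest summit of a broad domain had a median of 73.1 in RXRKO and 71.4 in WT. On this scale all 153 domains lay within 1.5-fold between the genotypes, with log2 ratios from -0.28 at Neat1 to 0.57 at Ntf3. The share of narrower domains within 1.5-fold was not counted, so this is not shown to be particular to broad domains. The median log2 ratio of this height was 0.02, as was that of the longest piece.

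**Figure D3:**
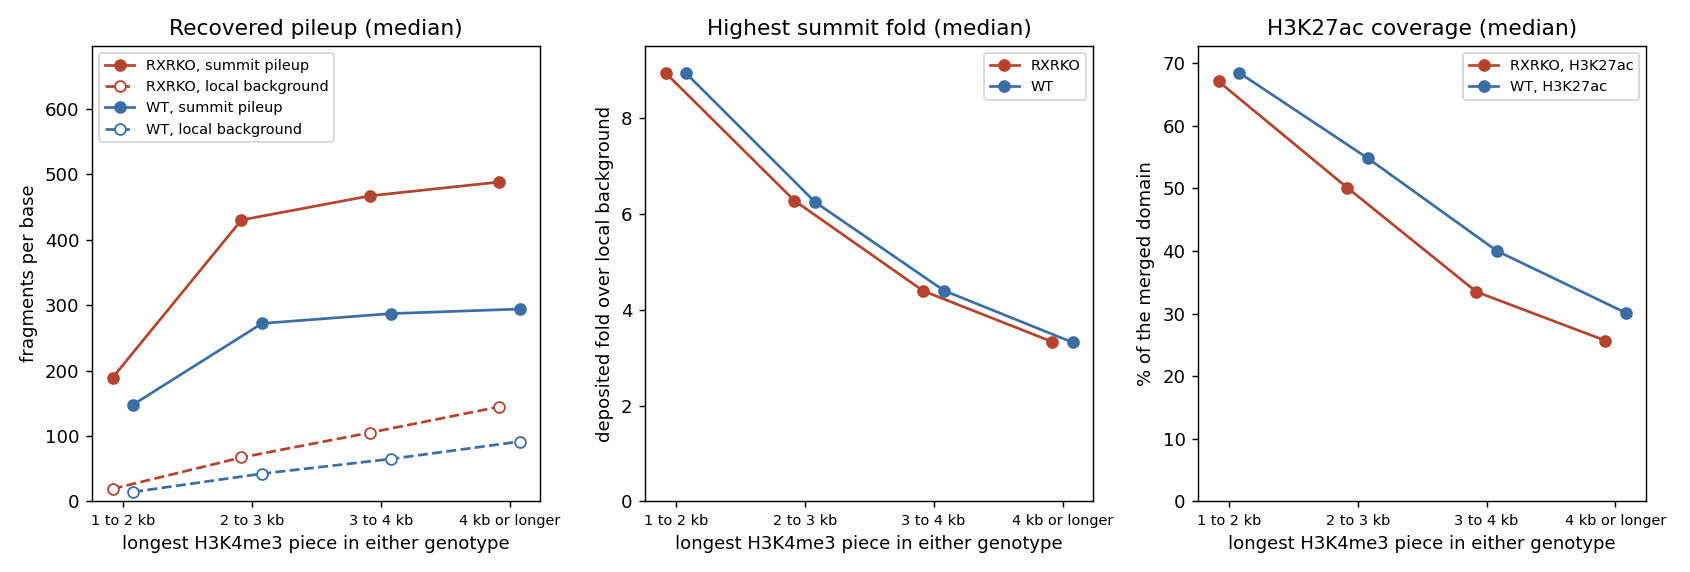
Medians over H3K4me3 domains grouped by the longest piece in either genotype (17951, 4015, 707 and 153 domains from left to right), RXRKO in red and WT in blue: recovered summit pileup and local background in fragments per base, highest deposited summit fold, and percent of the domain covered by H3K27ac. Pileup rises with width while summit fold and the percent covered by H3K27ac fall, in both genotypes. The same number of covered bases is a smaller percent of a wider domain.

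The width of broad domains lay mainly on the transcribed side. Among 98 domains with 1 coding gene of known strand, H3K4me3 reached a median of 2925 bp downstream and 1434 bp upstream of the start in RXRKO, and 2886 bp downstream and 1321 bp upstream in WT. The downstream reach was the longer one at 80 of 98 domains in each genotype. This asymmetry was about as frequent in domains of 1 to 2 kb, where it held for 83.6% in RXRKO and 83.6% in WT. The largest internal gap lay downstream of the start in 52 of the 78 domains with a gap in RXRKO and in 59 of 81 in WT. Most of the length of these domains lay downstream as well, so nothing is read from where the gaps fell.

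H3K27ac, which played no part in choosing the domains, covered a small part of them. Its peaks covered a median of 25.7% of a broad domain in RXRKO and 30.1% in WT. In bases the median was 1158 bp in RXRKO and 1422 bp in WT. The same number of covered bases is a smaller percent of a wider domain, so the percentages below do not compare amounts of H3K27ac. In domains of 1 to 2 kb these medians were 67.1% in RXRKO and 68.5% in WT, and in domains of 3 to 4 kb 33.5% in RXRKO and 40.0% in WT. The covered bases were lower in RXRKO at 99 broad domains, higher at 49 and equal at 5, with a median log2 ratio of -0.14 on the scale log2(bp + 100). The same ratio was -0.16 in domains of 3 to 4 kb and 0 over all merged domains with H3K27ac. At least 1.5-fold less H3K27ac in RXRKO was found at 23 of the 153 broad domains and at least 1.5-fold more at 7. These shares were 16.4% and 8.25% of all domains with H3K27ac and 21.6% and 3.53% of those of 3 to 4 kb. The median ratio of the broad domains lay near that of the next narrower class, as did the share with more. Their share with less lay nearer that of all domains. The RXRKO H3K27ac list was the shorter one, with 64849 peaks over 44.6 Mb in RXRKO and 74287 peaks over 47.1 Mb in WT, and with 1 library per genotype no difference in this mark has a replicate check.

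H3K27ac coverage in RXRKO was lowest relative to WT at Mbnl1, Nfe2, Hlf, Pcdh17 and Efna5, and at none of them was the H3K4me3 covered length in RXRKO more than 10% below that in WT. At Mbnl1 (chr3:60500574-60504909), a splicing regulator, H3K27ac covered 0 bp in RXRKO and 980 bp in WT, while H3K4me3 covered 3588 bp in RXRKO and 3801 bp in WT. At Hlf it covered 0 bp in RXRKO and 548 bp in WT, while H3K4me3 covered 4469 bp in RXRKO and 3834 bp in WT. In the domain inside Nfe2, an erythroid and megakaryocyte bZIP factor, it covered 0 bp in RXRKO and 859 bp in WT. At Pcdh17 and Efna5, a protocadherin and an ephrin ligand, the RXRKO list had no H3K27ac and the WT list 446 bp and 335 bp. A base at 0 here lies outside every called peak, which does not show that the mark was absent. It was highest relative to WT at Zfp423 with 723 bp in RXRKO and 0 bp in WT, Ntf3 with 427 bp in RXRKO and 0 bp in WT, Zfp462 with 1012 bp in RXRKO and 224 bp in WT, the Mllt3 domain broad in RXRKO alone with 1944 bp in RXRKO and 829 bp in WT, and Baz2b with 1627 bp in RXRKO and 909 bp in WT. Across the 153 domains the log2 ratios of H3K27ac and of H3K4me3 covered length had a Pearson r of 0.07, a description over domains that share the same libraries.

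H3K4me1, the mark with replicates, showed no change at broad domains that passed the test. Inside the domains its peaks covered a median of 18.3% and 28.8% in RXRKO replicates 1 and 2, and 20.2% and 28.0% in WT replicates 1 and 2. The replicate numbers differed more than the genotypes. Over the domain and 2 kb on each side, limma on log2(covered bp + 100) across 56019 merged domains called 0 domains in each direction at an adjusted p under 0.05. Unadjusted p-values under 0.05 were found at 1642 domains higher (2.93%) and 1188 lower (2.12%) in RXRKO. Of the 153 broad domains 2 were higher and 10 lower in RXRKO at that unadjusted level, 68 had a log2 ratio above 0 and 85 below 0, and the median was -0.04. The peak names place both replicates numbered 1 in one sequencing run and the other 6 libraries in another. Within the run of replicate 1 the median log2 ratio of broad domains was -0.04, and within that of replicate 2 it was 0.00. The sign was positive in both runs at 30 domains, negative in both at 41 and differed or was 0 at 82. With the replicate as a block, 9 broad domains were higher and 13 lower at an unadjusted p under 0.05, and 0 passed after adjustment.

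The lowest p-values in limma among broad domains were at Ikzf2, Runx1 and Kmt2a for more H3K4me1 in RXRKO and at Hoxb7, Muc13 and a site inside Tcf4 for less. At Ikzf2 H3K4me1 covered 1172 and 1742 bp in RXRKO replicates 1 and 2, and 670 and 520 bp in WT replicates 1 and 2. The log2 ratio there was 1.09 (SE 0.204, limma adjusted p = 0.668). The adjusted p at Ikzf2 was 0.295 with the replicate as a block and 0.0244 without WT replicate 1, when 1 broad domain passed, and it ran from 0.0244 to 1.00 over all alternatives. With only H3K4me1 peaks of fold 4 or more, the log2 ratio at Ikzf2 was 0.07. At Hoxb7 H3K4me1 covered 1565 and 1655 bp in RXRKO replicates 1 and 2, and 2138 and 2471 bp in WT replicates 1 and 2, a log2 ratio of -0.55 (SE 0.121, limma adjusted p = 0.694). At Runx1 it covered 2725 and 3404 bp in RXRKO replicates 1 and 2, and 2350 and 2471 bp in WT replicates 1 and 2, a log2 ratio of 0.27 (SE 0.096, limma adjusted p = 0.917). These 6 domains were chosen for their p-values. With 2 libraries per genotype that choice favours groups that do not overlap, so nothing is read from their separation. How often groups separate over all domains was not counted.

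**Figure D4:**
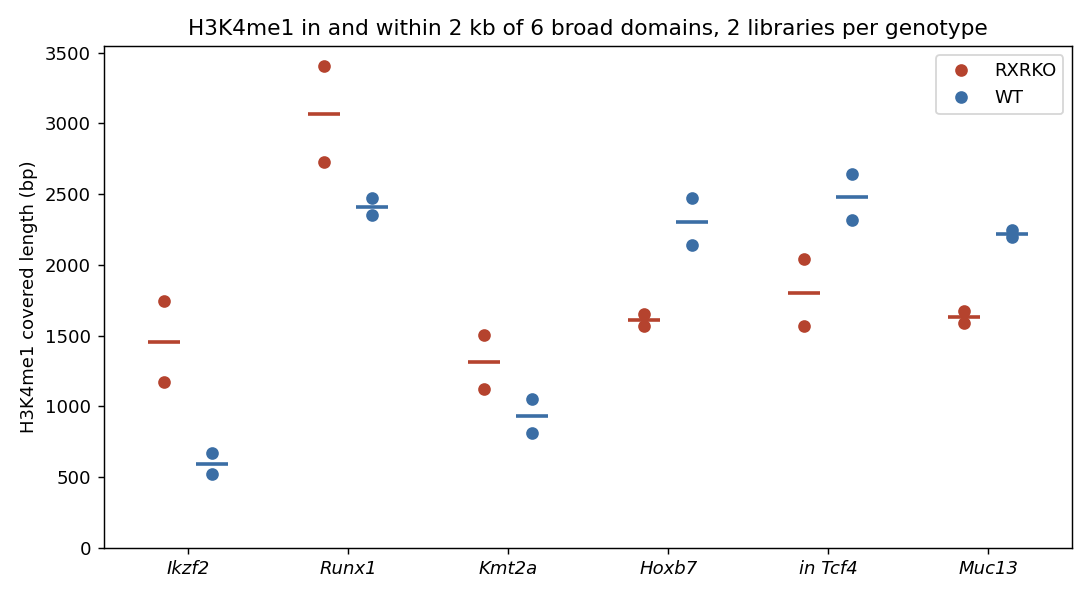
Bases covered by H3K4me1 peaks in the domain and 2 kb on each side at the 3 broad domains with the lowest p in each direction; points are the 2 libraries of each genotype, RXRKO left of WT, and lines are means. RXRKO points lie above WT at Ikzf2, Runx1 and Kmt2a and below WT at Hoxb7, Tcf4 and Muc13, and no difference passes after adjustment.

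Promoters in broad domains were richer in CpG than all promoters and close to other promoters with H3K4me3. The promoter table holds 119 of the 151 marked genes, with a median of 24 CpG dinucleotides in 300 bases against 21 for promoters with any H3K4me3 domain, 26 for those with a domain of 2 to 3 kb and 15 over all 17274 promoters. The ratio of observed to expected CpG was at least 0.6 in 73.9% of them, in 72.4% of promoters with any domain, in 83.0% of those with a domain of 2 to 3 kb and in 51.3% of all promoters. The Runx1 promoter printed above, with a ratio of 0.137, was one of the exceptions. The E-box CACGTG, bound by MYC and MAX and by related factors, was found in 18 of the 119 (15.1%), among them Pim1, Bbc3, Runx1 and Msi2, against 10.1% of promoters with any H3K4me3 domain and 8.15% of all. The ETS letters GGAAGT on either strand were in 25.2% of broad-domain promoters, 26.8% of promoters with any domain and 25.3% of all. The RUNX letters TGTGGT were in 3.36% of broad-domain promoters, 11.8% of promoters with any domain and 14.5% of all, and the GATA letters AGATAA in 2.52%, 5.76% and 9.56% of the same sets; 4 and 3 of the 119 promoters stand behind the first of these shares. The DR1 element, a direct repeat of the receptor half-site AGGTCA with 1 base between, was in 0 of the 119 and in 0.0579% of all promoters, and the repeats with 4 or 5 bases between (DR4 and DR5) were also in 0 of the 119. Exact letters in a window of this size are a description and say nothing of binding.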

How the data were processed

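Per the submitters' processing notes, reads were trimmed with cutadapt 1.7.1 and aligned to mm10 with Bowtie2 2.2.5, and the authors called peaks in each library with MACS3. Its settings, any control or spike-in and the treatment of duplicates are stated by no source used here. The deposited lists give each peak's position, the caller's score, a summit fold (a ratio to the caller's local background) and -log10 p and q. Joining, merging and covered lengths were computed with pandas 2.3.3 and checked against bedtools 2.31.1. H3K4me1 was fitted with limma 3.58.1 (lmFit, eBayes with trend, R 4.3.3) on log2(covered bp + 100), centred on each library's median, over merged domains with a mean of at least 200 bp, with Benjamini-Hochberg adjustment. The fit was also run on simulated data whose planted changes were larger than any found at a broad domain. Its power at the sizes found here was therefore not measured. Pileup and background were solved from each peak's fold and p, which worked for 95.7% of RXRKO and 99.96% of WT H3K4me3 peaks. Gene starts came from the RefSeq promoter table for 17274 genes and, for the others, from whichever annotated end had more H3K4me3 around it. The deviations of same-numbered H3K4me1 libraries from their group means correlated at 0.281 over 56019 domains, and the peak names show a shared run. Genes were named by rule: the 10 longest domains, the 8 greatest length ratios each way, the leading domains of each list, those nearest 4 kb, the 3 lowest H3K4me1 p and the 5 greatest H3K27ac differences each way, Myc, Rxra and Rxrb; other genes were named after their values were seen, and some genes that the rule picks are not reported here. The domains, gene lists and tests were chosen with earlier results of these data known. Alternatives changed the gap, length limit, peak cut-offs, overlap, gene distance, pseudocount, centring, window, filter and libraries used.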

Additional observations from a re-analysis of the deposited data

How the results depend on the processing

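The number of broad domains followed the joining rule and the peak list. Joining at 250 bp gave 75 domains (61 broad in RXRKO, 50 in WT, 36 in both, 25 in RXRKO alone) and a median log2 covered ratio of 0.0259; joining at 1000 bp gave 261 (235 in RXRKO, 194 in WT, 168 in both). A limit of 3 kb gave 860 (800 in RXRKO, 672 in WT, 612 in both, 188 in RXRKO alone, 60 in WT alone). A limit of 5 kb gave 16 (14 in RXRKO, 4 in WT, 2 in both, 12 in RXRKO alone, 2 in WT alone), of which 87.5% were longer in RXRKO, with a median log2 ratio of 0.46 for length and 0.11 for covered bases, 14 with a coding start and 14 genes marked. With only peaks of fold 4 or more, 2 domains were left (2 in RXRKO, 0 in WT, 0 in both, 2 in RXRKO alone, 0 in WT alone); 100% were longer in RXRKO, with a median log2 ratio of 0.44 for both measures. With the outer span as length, 23 were broad in RXRKO alone and 10 in WT alone, with a median log2 ratio of 0.00805. A stricter q, equal numbers of peaks and a 50% overlap kept these counts within 1.5 times. With H3K27ac peaks of fold 4 or more, the median coverage was 0% in RXRKO and 0% in WT with a median log2 ratio of 0, and H3K27ac was present in RXRKO alone at 4 domains (2 with all peaks) and in WT alone at 24 (6 with all peaks). For H3K4me1, leaving out each library in turn gave 0 to 209 calls over all domains, 0 to 1 among broad domains, 11 to 20 broad domains at an unadjusted p under 0.05 and a median log2 ratio of -0.0518 to 0.0168, positive without RXRKO replicate 1. The calls arose without WT replicate 1 (209) or WT replicate 2 (171), where the lone WT library is assumed to vary like the RXRKO libraries. The merged domain alone gave 23 calls over all domains. Without centring the median of broad domains was 0.0245 and 5 had an unadjusted p under 0.05, and with the replicate block 22 had (12 in the fit as reported); the block changed no call after adjustment. With H3K4me1 peaks of fold 4 or more, 57 broad domains could be tested, with a median log2 ratio of -1.31. Over all domains tested with these peaks the median was 0.04. In RXRKO replicates 1 and 2, 41.2% and 37.4% of H3K4me1 peaks reached that fold. In WT replicates 1 and 2 the shares were 46.5% and 45.8%. The cause of these shifts was not tested. Peak lists hold no read counts, so what depth limits could not be measured, and the 1 library per genotype for H3K4me3 and H3K27ac leaves lengths and coverage without an error. No group had enough samples for an outlier test.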
